A study of Mus musculus with 8 samples.

Results

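The mesothelium is the flat cell layer that covers the outer face of the uterus as part of the serosa, and 7 genes that mark it were followed in whole uteri of *Ezh2* cKO and control mice. The genes are *Upk3b*, *Msln*, *Lrrn4*, *Wt1*, *Muc16*, *Gpm6a* and *Bnc1*. They were taken by symbol from a list of mesothelial markers, and the list was chosen with earlier results of these data known. All 7 were among the 27179 genes counted and among the 16658 genes that passed the filter on low counts. RNA was measured by RNA-seq in 8 whole uteri at postnatal day 10 (PD10), 4 of each genotype. The control uteri were *Ezh2* f/f, with the floxed allele and no Cre. The cKO uteri were *Ezh2* f/f; Acre, that is, the same floxed allele with Cre expressed from *Amhr2*, which is active in mesenchyme-derived cells of the female tract. Both genotypes shared a mixed strain background. *Ezh2* encodes the enzyme of a Polycomb repressive complex that methylates histone H3 to keep genes silent. Which cells of the serosa carried the deletion cannot be read from RNA of a whole uterus.

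Mesothelial cells line the body cavities and the organs in them. They arise from the coelomic epithelium of the embryo, the same layer that folds inward to form the Müllerian duct, and they keep both epithelial traits (keratins, junctions, a glycocalyx of mucins) and mesenchymal ones. Of the 7 genes, *Msln* encodes mesothelin, a surface protein held by a lipid anchor, and *Muc16* encodes the large membrane mucin that mesothelin binds. *Upk3b* encodes a uroplakin, of a family best known from the lining of the bladder, that mesothelium also makes. *Lrrn4* and *Gpm6a* encode membrane proteins first studied in neurons. *Wt1* and *Bnc1* encode zinc finger transcription factors. *Wt1* is also made by stroma and muscle of the uterus, so it is the least restricted of the 7.

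For 5 of the 7 genes a promoter window was found in RefSeq (GRCm38.p6), running from 250 bases before to 50 bases after a transcript start. *Gpm6a* had windows at 2 starts, which makes 6 windows in all. The windows of 4 genes are printed because 3 of them (*Upk3b*, *Lrrn4*, *Bnc1*) belong to genes whose levels moved together between libraries and the last (*Muc16*) to a gene whose level did not. Each is written 5′ to 3′ on the gene's own strand, at chr5:136038246-136038545 (+), chr2:132880813-132881112 (−), chr7:81992250-81992549 (−) and chr9:18674554-18674853 (−). Capitals mark matches, on either strand, to the core GGAATG read by TEAD factors (CATTCC on the other strand) and to the core GNGTGGGNG read by EGR factors and WT1.
Upk3b: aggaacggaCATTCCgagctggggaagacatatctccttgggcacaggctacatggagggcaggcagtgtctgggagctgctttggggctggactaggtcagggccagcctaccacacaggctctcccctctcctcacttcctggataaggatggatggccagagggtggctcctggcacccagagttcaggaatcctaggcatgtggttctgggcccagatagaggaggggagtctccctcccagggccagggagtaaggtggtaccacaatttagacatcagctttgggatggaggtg
Lrrn4: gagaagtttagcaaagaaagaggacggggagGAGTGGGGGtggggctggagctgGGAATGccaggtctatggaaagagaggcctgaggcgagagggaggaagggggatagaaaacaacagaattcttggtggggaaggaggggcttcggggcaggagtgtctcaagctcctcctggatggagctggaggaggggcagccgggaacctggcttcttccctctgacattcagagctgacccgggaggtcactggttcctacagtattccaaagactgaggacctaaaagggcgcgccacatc
Bnc1: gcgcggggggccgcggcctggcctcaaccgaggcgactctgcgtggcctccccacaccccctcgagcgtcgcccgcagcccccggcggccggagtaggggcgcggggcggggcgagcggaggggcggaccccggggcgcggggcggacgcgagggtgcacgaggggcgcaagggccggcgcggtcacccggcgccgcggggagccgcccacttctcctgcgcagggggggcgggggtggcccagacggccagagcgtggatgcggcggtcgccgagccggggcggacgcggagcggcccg
Muc16: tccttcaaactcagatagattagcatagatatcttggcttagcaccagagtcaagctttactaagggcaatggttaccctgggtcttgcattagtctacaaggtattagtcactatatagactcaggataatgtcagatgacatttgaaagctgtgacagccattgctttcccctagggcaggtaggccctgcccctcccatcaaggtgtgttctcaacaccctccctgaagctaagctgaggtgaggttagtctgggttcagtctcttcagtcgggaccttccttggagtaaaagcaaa

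The *Upk3b* window held 1 TEAD core, 241 bases upstream of the start on the minus strand of the window. The *Lrrn4* window held 1 TEAD core at 196 bases and 1 EGR and WT1 core at 219 bases upstream, which do not overlap. Of the *Gpm6a* windows, 1 held a TEAD core at 125 bases and the other a TATAAA at 211 bases upstream. No match to these 3 motifs was found in the windows of *Bnc1* and *Muc16*. Among 32851 promoter windows of the same length, 14.7% held GGAATG, 14.3% held GNGTGGGNG and 13.6% held TATAAA, so such matches are common. The *Lrrn4* window lies at a start inside the outer span of the gene. The windows also differed in base composition. *Bnc1* had 83.3% GC and a CpG observed over expected ratio of 0.98, against medians of 52.7% and 0.38 over all windows. *Upk3b* and *Muc16* had 58.7% and 46.7% GC and ratios of 0.08 and 0.06. *Lrrn4* had 58.0% GC and a ratio of 0.31.

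Between 25287141 and 36685807 reads were counted per library, so that 3 counts correspond to 0.0824 to 0.117 CPM (counts scaled to library size, with TMM factors), a floor that covers counting error only. No pair of libraries differed by as little as sampling noise (chi-square per gene from 7.44 to 30.04 over 28 pairs). *Ezh2* was at 49.5, 40.5, 54.7 and 35.4 CPM in control replicates 1 to 4 and at 30.4, 38.0, 40.7 and 38.0 CPM in cKO replicates 1 to 4. The mean was lower in cKO but the genotypes overlapped, with a log2 fold change of −0.29 (SE 0.13, edgeR adjusted p = 0.247). Reads were counted over the whole gene and not over the floxed exons, and cells without *Amhr2*-Cre keep the gene. *Amhr2*, the gene that supplies the promoter of the Cre, had control and cKO means of 6.15 ± 0.749 and 3.69 ± 0.610 CPM (SD, n = 4), a log2 fold change of −0.73 (SE 0.15, edgeR adjusted p = 0.0148). Only the cKO uteri carried the *Amhr2*-Cre, and the part of the Cre itself in this difference was not tested. Genes that mark fat cells stood apart in cKO replicates 1, 2 and 3, where the 7 fat genes summed to 237.8, 425.9 and 241.3 CPM, against 113.0 CPM in cKO replicate 4 and 100.4 to 111.5 CPM in the control libraries. *Lpl*, which other cells also use, made up nearly all of the low sums, at 98.0 to 108.5 CPM in control and 111.1 CPM in cKO replicate 4. The fat cell gene *Fabp4* stood between 39.0 and 106.7 CPM in the first 3 cKO libraries, against 1.61 CPM in the fourth and 0.659 to 1.43 CPM in control. The uterine layers were present in every library, with *Krt8* of the epithelium at 327.7 to 494.9 CPM and *Acta2* of smooth muscle at 3332.1 to 4287.3 CPM. The 8 ovarian genes summed to 6.64 to 9.40 CPM in control and 5.78 to 9.49 CPM in cKO, most of it *Star*, at 4.59 to 7.89 CPM. *Gdf9* was at 0.841 to 1.74 CPM, and *Fshr* was at 0 counts in all 8 libraries.

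No difference between the genotypes was found for any of the 7 mesothelial genes. Of the 7, 0 were called by the thresholds of the study (more than 2-fold with an adjusted p under 0.05), where 1.30% of all genes tested were called, and 0 passed the adjusted p alone, which 5.34% of all genes did. The count was also 0 at an unadjusted p under 0.05, with DESeq2 and with limma-voom. In 0 of the 7 did the libraries of the genotypes stand apart without overlap, which they did for 12.3% of all genes. The median log2 fold change of the 7 genes was 0.16, with 5 above and 2 below 0, beside a median of 0.0 over all genes. A change of 2-fold lay outside the 95% interval of 6 of the 7 genes, as it did for 85.9% of all genes. The exception was *Lrrn4*. The summed level of the 7 genes was between 208.9 and 310.4 CPM in control and between 270.4 and 288.0 CPM in cKO, of which *Wt1* alone supplied 140.3 to 156.4 and 136.5 to 171.5 CPM. In RNA of a whole organ, fewer mesothelial cells and less of a transcript per cell cannot be told apart. The labels give no batch, and the p-values measure the spread among 4 uteri per genotype.

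Of the genes for surface proteins, *Upk3b* (Entrez 100647, chr5:136038496-136044993, plus strand) was at 58.2, 31.2, 78.7 and 80.7 CPM in control and 75.1, 63.3, 48.1 and 70.8 CPM in cKO. Control replicate 2 was far below the other control libraries, and every cKO library lay inside the control range. The means were 62.2 ± 23.0 and 64.3 ± 11.8 CPM (SD, n = 4), and the log2 fold change was 0.04 (SE 0.30, 95% interval −0.67 to 0.76, edgeR adjusted p = 0.953).

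*Msln* (Entrez 56047, chr17:25748613-25754378, minus strand) was at 18.8, 9.44, 23.4 and 26.8 CPM in control and 24.5, 24.9, 17.6 and 22.2 CPM in cKO. The order of the control libraries was that of *Upk3b*, with replicate 4 highest and replicate 2 lowest. The means of 19.6 ± 7.56 and 22.3 ± 3.34 CPM (SD, n = 4) gave a log2 fold change of 0.18 (SE 0.28, 95% interval −0.47 to 0.83, edgeR adjusted p = 0.763). *Muc16*, the mucin that mesothelin binds (Entrez 73732, chr9:18495445-18674821, minus strand), was low, at 1.36, 0.851, 1.28 and 1.21 CPM in control and 0.816, 0.971, 1.45 and 1.30 CPM in cKO, from 21 to 47 counts per library. Its lowest library was cKO replicate 1, a library in which *Msln* was high. The log2 fold change of *Muc16* was −0.05 (SE 0.25, 95% interval −0.58 to 0.48, edgeR adjusted p = 0.930).

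*Lrrn4* (Entrez 320974, chr2:132866686-132894010, minus strand) had the widest spread. It was at 14.2, 5.22, 17.7 and 24.0 CPM in control and 21.3, 18.3, 13.6 and 18.3 CPM in cKO. The highest library, control replicate 4, was 4.59 times the lowest, control replicate 2, and the cKO libraries lay between them. The log2 fold change of 0.21 (SE 0.40, edgeR adjusted p = 0.802) had a 95% interval from −0.73 to 1.16, that is, from 0.60 to 2.23 times the control level. *Gpm6a* (Entrez 234267, chr8:54779434-55060878, plus strand) was at 13.8, 7.93, 16.5 and 15.4 CPM in control and 17.4, 16.4, 14.0 and 13.2 CPM in cKO. It too was lowest in control replicate 2, and its other 7 libraries lay close together. The difference was 0.18 on the log2 scale (SE 0.19, 95% interval −0.25 to 0.61, edgeR adjusted p = 0.628).

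The 2 transcription factors behaved unlike each other. *Bnc1* (Entrez 12173, chr7:81966657-81992299, minus strand) was at 8.11, 2.71, 9.13 and 9.39 CPM in control and 10.8, 8.67, 5.54 and 8.09 CPM in cKO. Control replicate 2 was again the lowest and cKO replicate 3 the next. *Bnc1* had a log2 fold change of 0.16 (SE 0.35, 95% interval −0.63 to 0.95, edgeR adjusted p = 0.832). An exon of *Bnc1* overlaps the pseudogene *4833418N17Rik* on the opposite strand, and the strand setting of the counting is not given in the sources used here.

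*Wt1* (Entrez 22431, chr2:105126529-105173614, plus strand) was at 156.4, 151.6, 140.3 and 152.8 CPM in control and 138.1, 152.7, 171.5 and 136.5 CPM in cKO. It was steady, with a highest library 1.26 times the lowest, and control replicate 2 stood in the middle of the range. The log2 fold change of −0.01 (SE 0.07, edgeR adjusted p = 0.977) had the narrowest interval of the 7 genes, −0.17 to 0.16, or 0.89 to 1.11 times the control level. For the single genes, a two-sided exact permutation test of log2(CPM + 0.1) over the 70 arrangements of the libraries, which cannot give a p under 0.029, gave p from 0.486 for *Gpm6a* to 0.886 for *Muc16*.

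**Figure D1:**
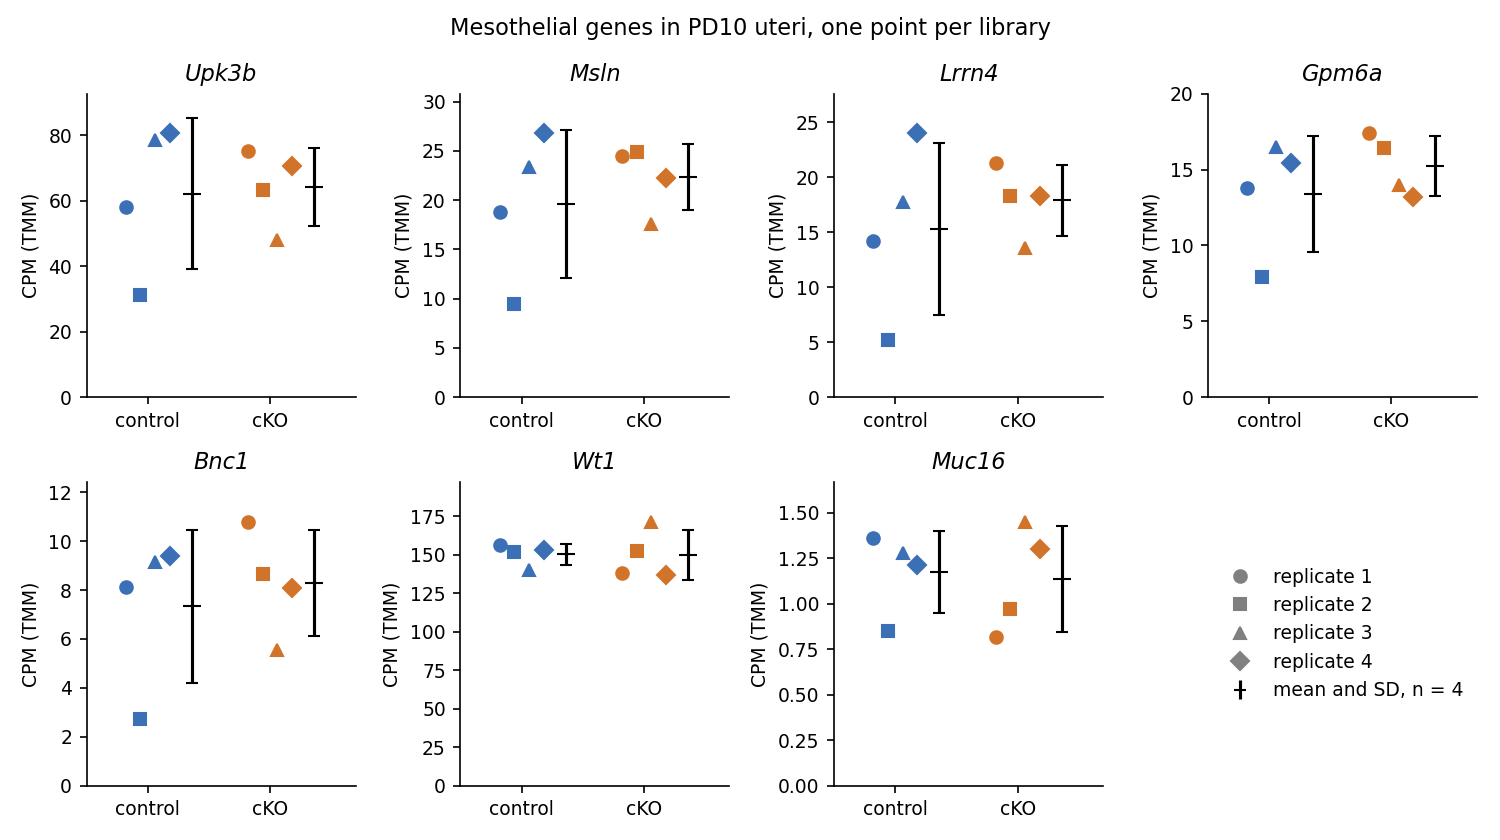
TMM-scaled CPM of each of the 7 genes in the 4 control and 4 cKO libraries (points, one shape per replicate number), with mean and SD beside them (n = 4). The genotypes overlap in every panel, and control replicate 2 (blue square) is the lowest library for *Upk3b*, *Msln*, *Lrrn4*, *Gpm6a* and *Bnc1* but not for *Wt1* and *Muc16*.

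Per kilobase of exon, which allows levels of different genes to be compared, *Wt1* was the highest in control with 24.3 ± 1.12 CPM per kilobase (SD, n = 4). *Upk3b* followed with 17.6 ± 6.53, then *Msln* with 6.40 ± 2.47, *Gpm6a* with 4.17 ± 1.19, *Lrrn4* with 4.11 ± 2.11, *Bnc1* with 1.58 ± 0.674 and *Muc16* with 0.0446 ± 0.00851 CPM per kilobase. Within each of the 8 libraries the order was the same, except that *Gpm6a* exceeded *Lrrn4* in 5 of 8. The libraries' ranges did not overlap between *Upk3b* and *Msln* or between *Bnc1* and *Muc16*, and overlapped for the other neighbours. In cKO the levels were 24.2 ± 2.62 for *Wt1*, 18.2 ± 3.36 for *Upk3b*, 7.28 ± 1.09 for *Msln*, 4.81 ± 0.860 for *Lrrn4* and 4.75 ± 0.611 CPM per kilobase for *Gpm6a*. Exon lengths were those of the GENCODE annotation of GRCm38, and a long gene such as *Muc16* (26350 bases of exon) is lowered on this scale if not all of it is transcribed.

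Libraries of the same genotype differed by more than the genotypes did. The SD of log2 CPM within genotypes was 0.118 for *Wt1*, 0.314 for *Muc16*, 0.362 for *Gpm6a* and 0.493 to 0.693 for the other 4, above the size of the log2 fold change for each gene. Genes were ranked by this SD among the 14456 tested genes with a mean of at least 1 CPM. *Lrrn4*, *Bnc1*, *Upk3b* and *Msln* lay at the 99.4, 99.3, 98.1 and 98.1 percentiles, *Gpm6a* at 94.5, *Muc16* at 91.9 and *Wt1* at 47.8. For *Lrrn4* the SD of CPM was 51.3% of the mean in control, which holds replicate 2, and 17.9% in cKO. This percentage was also larger in control for *Bnc1*, *Upk3b*, *Msln* and *Gpm6a*, and larger in cKO for *Muc16* and *Wt1*. Ranks without control replicate 2 were not computed. Control replicate 2 was the lowest of the 8 libraries for 5 of the 7. For *Muc16* it was the lowest of the controls only (0.851 CPM, others 1.21 to 1.36). The mean of the other 3 control libraries was 3.56 times its level for *Lrrn4*, 3.28 times for *Bnc1*, 2.44 times for *Msln*, 2.33 times for *Upk3b* and 1.92 times for *Gpm6a*, but 1.51 times for *Muc16* and 0.989 times for *Wt1*. The control libraries ran in the order 4, 3, 1, 2 for *Upk3b*, *Msln*, *Lrrn4* and *Bnc1*. Among the cKO libraries, replicate 3 was the lowest for the same 4 genes.

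*Upk3b*, *Msln*, *Lrrn4*, *Gpm6a* and *Bnc1* thus moved together, a group of 5 set apart from *Wt1* and *Muc16* by these same levels. Over the 8 libraries, each gene taken as its deviation from its genotype mean, the 10 pairs among these 5 genes had Pearson correlations from 0.90 to 0.99, and from 0.54 to 0.94 without control replicate 2. *Wt1* had correlations from −0.48 to 0.35 with the other 6 genes. *Muc16* had correlations from 0.23 to 0.32 with the 5 genes. The points share library and depth, and the values are a description. The share of all gene pairs with such correlations was not computed. As ratios to *Upk3b* within a library, *Msln* stayed between 0.298 and 0.394 over the 8 libraries and *Gpm6a* between 0.187 and 0.291, whereas *Wt1* ranged from 1.78 to 4.86.

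**Figure D2:**
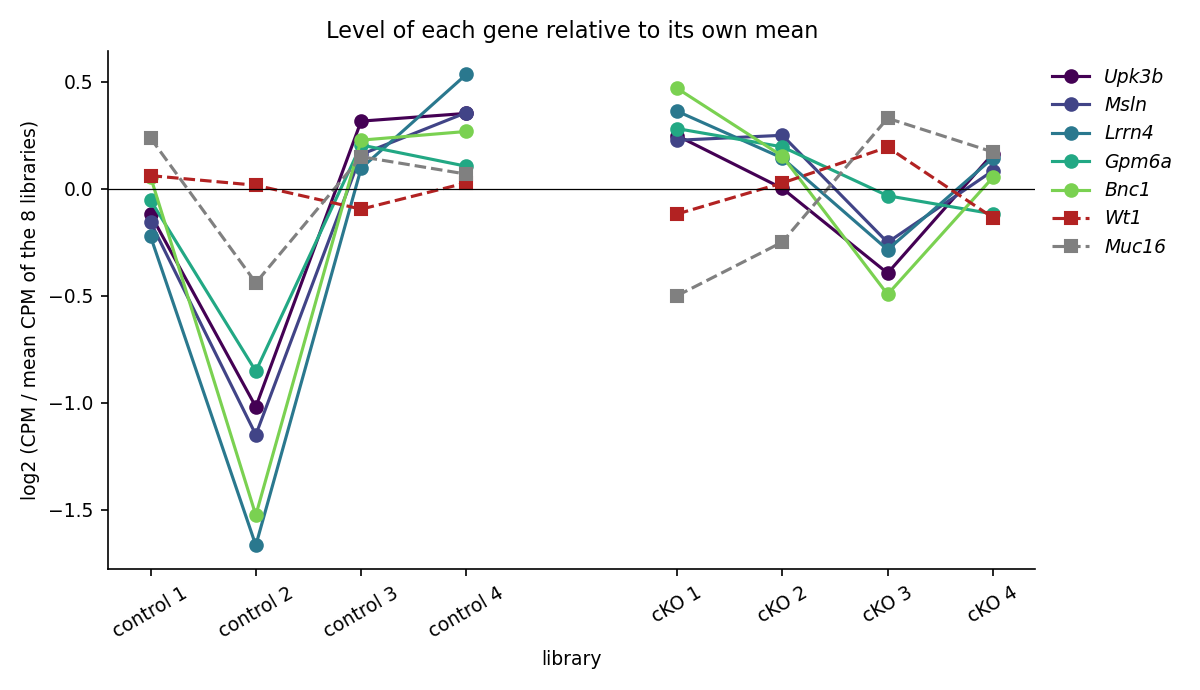
Level of each gene in each library relative to its own mean over the 8 libraries (log2 of the ratio of CPM); lines join libraries of one genotype only to guide the eye. *Upk3b*, *Msln*, *Lrrn4*, *Gpm6a* and *Bnc1* (circles, solid) dip together in control replicate 2, while *Wt1* (squares, dashed red) stays near 0 and *Muc16* (squares, dashed grey) follows its own order.

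For 4 of the 7 genes the direction of the small difference turned when that library was left out. Without control replicate 2 the log2 fold change became −0.17 for *Upk3b* (SE 0.17), −0.05 for *Msln* (SE 0.14), −0.06 for *Lrrn4* (SE 0.19) and −0.11 for *Bnc1* (SE 0.18), with edgeR adjusted p of 0.586, 0.872, 0.874 and 0.765. *Gpm6a* came to 0.00222. *Upk3b* also came to −0.04 without cKO replicate 1 and −0.01 without cKO replicate 4. The standard errors were thus about as large as, or larger than, the differences in both fits. With only cKO replicate 4, the cKO library without high fat genes, set against the 4 control libraries, *Gpm6a* came to −0.0167 and *Muc16* to 0.141, and again none of the 7 passed. Over all 19 alternative fits the lowest edgeR adjusted p of any of the 7 genes was 0.464.

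Other cell types' genes also differed between control replicate 2 and the other control libraries. It had the highest macrophage sum of the control libraries (113.7 CPM for 4 of 4 genes tested, others 71.7 to 101.6) and the highest smooth muscle sum (9095.9 CPM for 6 of 6 genes tested, others 7171.6 to 7894.7). Its skeletal muscle sum was also the highest (74.5 CPM, 3 of 5 genes tested, others 43.3 to 47.7), of which *Acta1* alone supplied 70.1 CPM. Its epithelial sum was the lowest (1051.4 CPM for 8 of 8 genes tested, others 1075.4 to 1234.3). It was also the highest control library for endothelium (651.3 CPM, others 494.0 to 556.0), stroma (11066.7 CPM, others 8568.6 to 10232.8), ovary (9.40 CPM, others 6.64 to 7.99), nerve (9.67 CPM, others 7.30 to 8.06), oviduct (9.36 CPM, others 7.36 to 7.92) and fat genes (111.5 CPM, others 100.4 to 104.7). Its sums were the lowest of the controls for urothelium (2.28 CPM, others 2.81 to 5.74) and squamous epithelium (8.39 CPM, others 9.94 to 11.2). Among cKO libraries, replicate 3, the lowest for 4 mesothelial genes, had a macrophage sum of 85.8 CPM (range 74.3 to 98.0) and an epithelial sum of 1348.3 CPM (range 1130.4 to 1422.6). It was the lowest cKO library for smooth muscle (7978.3 CPM, others up to 9098.9) and skeletal muscle (38.5 CPM, 33.1 of it *Acta1*, others up to 59.1), where control replicate 2 was the highest control. It was the highest cKO library for endothelium (658.2 CPM, others down to 528.7) and ovary (9.49 CPM, others down to 5.78). The part of these cell types in the mesothelial levels was not tested.

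Between the genotypes, the lists of 8 epithelial, 6 smooth muscle, 4 endothelial and 4 macrophage genes had 0 members with an adjusted p under 0.05 in either direction, where 2.62% of all genes were higher and 2.71% lower in cKO. Summed stroma genes were at 8568.6 to 11066.7 CPM in control and 10114.6 to 12889.4 CPM in cKO, with 1 of 8 higher (*Col3a1*) and 2 of 8 lower (*Hoxa10* and *Hoxa11*). The 3 urothelial genes *Upk1a*, *Upk2* and *Upk3a*, relatives of *Upk3b*, summed to 2.28 to 5.74 CPM in control and 6.59 to 9.20 CPM in cKO, with 0 of 3 passing (edgeR adjusted p = 0.0706 for *Upk1a*). Their sums did not overlap between genotypes, unlike those of the 7 mesothelial genes. Of the remaining lists, 0 of 6 fat, 0 of 2 ovarian, 0 of 4 oviductal and 0 of 5 squamous epithelial genes tested passed, and 1 gene rose in each of the nerve list (*Sox10*, of 4 tested) and the skeletal muscle list (*Tnnt3*, of 3 tested). The 6 fat genes were all above 0, with a median log2 fold change of 5.77, though they did not pass.

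**Figure D3:**
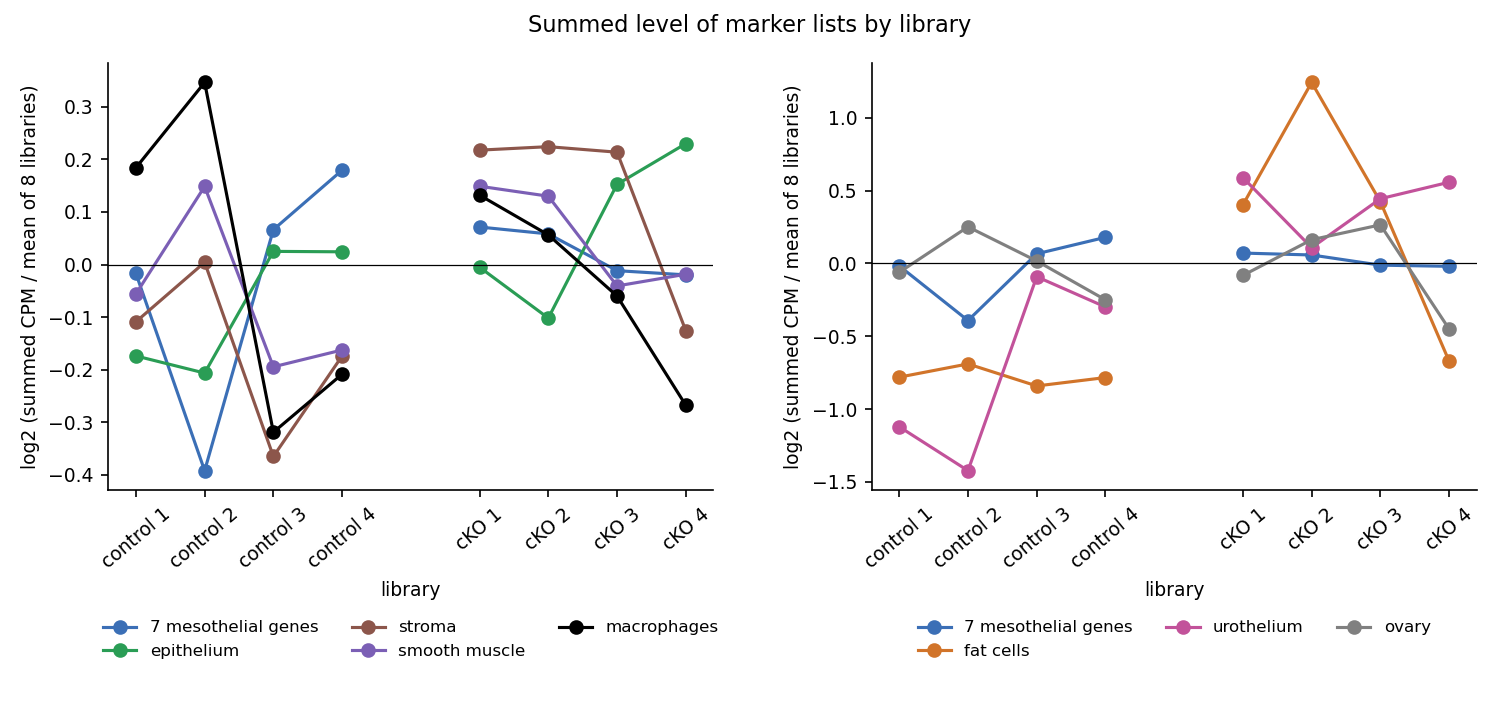
Summed CPM of marker lists in each library relative to the mean of the 8 libraries (log2), with the 7 mesothelial genes repeated in both panels (*Wt1*, the least restricted, supplies 136.5 to 171.5 CPM of their sum) and lines joining libraries of one genotype. Left, control replicate 2 is lowest for the mesothelial genes and highest for macrophage genes. Right, fat genes are high in cKO replicates 1 to 3 and urothelial genes are higher in each cKO library than in each control library.

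A further list of 16 genes is used by mesothelium among other cells, and 15 of them were tested. *Calb2*, which encodes calretinin, had 0 to 5 counts per library and was not tested. Of the 15, 1 fell in cKO and 0 rose, where 2.71% of all genes fell and 2.62% rose by the adjusted p. The list's log2 fold changes had a median of 0.13, with 10 above and 5 below 0. In 5 of 15 the libraries of the genotypes did not overlap (*Efemp1*, *Krt19*, *C3*, *Aldh1a2* and *Bcam*), beside the 12.3% of all genes.

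*Efemp1*, which encodes the extracellular matrix protein fibulin-3, made by mesothelium and by fibroblasts, was the gene that fell. It was at 102.4, 98.7, 97.6 and 97.5 CPM in control and 61.0, 64.8, 55.7 and 57.2 CPM in cKO. The libraries of a genotype were close together, control replicate 2 included, and those of the genotypes did not overlap. The log2 fold change was −0.73 (SE 0.06, 95% interval −0.86 to −0.60, edgeR adjusted p = 2.85e-05). With only cKO replicate 4 against the controls it was −0.78, and with a score of fat genes as a covariate −0.80 (edgeR adjusted p = 0.00153). The score, a mean of log2 CPM, was 4.33 to 5.34 in cKO replicates 1 to 3, −0.66 in cKO replicate 4 and −0.99 to 0.4 in control. For any gene, both fits thus rest mostly on cKO replicate 4 and are not separate checks. The drop in *Efemp1* was not shared by the 7 mesothelial genes, and its correlation with their mean profile over the 8 libraries was 0.04.

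In the same fit no other gene of the list passed the adjusted p, though some did under other settings. *Krt19*, a keratin of simple epithelia, had 263.8 ± 27.9 CPM in control and 317.2 ± 18.2 CPM in cKO (log2 fold change 0.27, SE 0.08, edgeR adjusted p = 0.0657), next to epithelial sums that leaned the same way. *Pkhd1l1*, a large membrane protein, had 15.5 ± 3.41 and 22.0 ± 3.53 CPM (log2 fold change 0.51, SE 0.15, edgeR adjusted p = 0.0817) and was highest of the controls in replicate 2, where *Upk3b*, *Msln*, *Lrrn4*, *Gpm6a* and *Bnc1* were lowest. Without control replicate 2, its log2 fold change was 0.66 (edgeR adjusted p = 0.00705). With DESeq2, *Pkhd1l1* (adjusted p = 0.0171) and *Krt19* (adjusted p = 0.0207) passed the adjusted p, each under 2-fold. *C3*, a complement protein, was at 32.2 to 45.3 CPM in control and at 73.0, 72.8, 47.7 and 46.7 CPM in cKO (log2 fold change 0.62, SE 0.18, edgeR adjusted p = 0.0826). The 2 highest *C3* levels were in cKO replicates 1 and 2, which also had high fat genes, while cKO replicate 3, with a fat sum of 241.3 CPM, was at 47.7 CPM. With the fat score as a covariate the log2 fold change of *C3* was 0.34 (edgeR adjusted p = 0.795), and with only cKO replicate 4 against the controls it was 0.26. Both of these fits rest mostly on cKO replicate 4. *C3* passed at a log2 fold change of 0.62 with DESeq2 (adjusted p = 0.00287) and with edgeR's robust = FALSE (adjusted p = 0.0444). *Aldh1a2*, an enzyme of retinoic acid synthesis made by mesothelium and stroma, had 146.7 ± 4.82 and 126.1 ± 14.3 CPM (log2 fold change −0.22, SE 0.07, edgeR adjusted p = 0.112). Without cKO replicate 4, *Aldh1a2* came to −0.28 and *C3* to 0.72, each with an edgeR adjusted p of 0.0285. *Bcam*, a laminin receptor, had 192.1 ± 5.66 and 209.8 ± 8.40 CPM (log2 fold change 0.13, SE 0.05, edgeR adjusted p = 0.189).

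**Figure D4:**
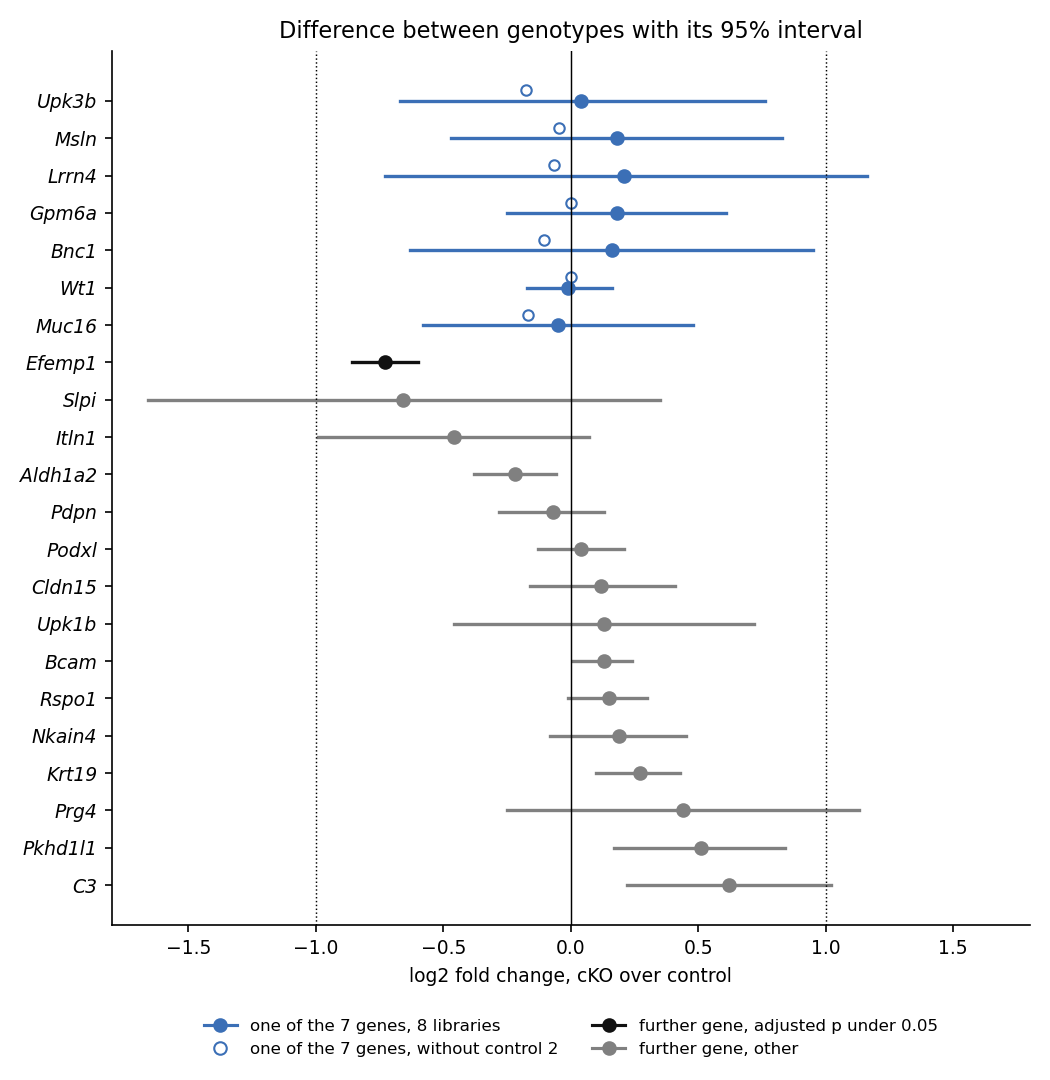
Log2 fold change, cKO over control, with its 95% interval for the 7 genes (blue) and the 15 tested genes of the further list (black where the edgeR adjusted p was under 0.05, grey otherwise); open circles give the 7 genes without control replicate 2, and dotted lines mark 2-fold. All 7 blue intervals cross 0, 6 of them stay within 2-fold, and *Efemp1* is the black point, at −0.73.

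*Upk1b*, named after its values were seen, was the gene of the further list most like the 7. It encodes a tetraspanin partner of *Upk3b* protein. It was at 12.7, 5.84, 14.7 and 13.8 CPM in control and 14.7, 15.2, 9.33 and 12.5 CPM in cKO. Control replicate 2 and cKO replicate 3 were the low libraries, as for *Upk3b*. Its correlation with the mean profile of the 7 genes was 0.90, its ratio to *Upk3b* stayed between 0.170 and 0.239, and its log2 fold change was 0.13 (SE 0.26, edgeR adjusted p = 0.816). Over the rest of the list, correlations with the profile ran from −0.71 for *Pkhd1l1* to 0.77 for *Krt19*.

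Transcription factors of the coelomic epithelium and its mesenchyme were the last list. Of 8 genes, 6 were tested, and *Gata4* and *Lhx9* had at most 7 counts in any library. *Gata6*, which encodes a GATA factor, rose in cKO, while 0 of the 6 fell, where 2.62% of all genes rose and 2.71% fell. The median log2 fold change of the 6 was −0.09. *Gata6* was at 17.3, 17.6, 18.1 and 18.7 CPM in control and 33.8, 31.6, 29.8 and 23.1 CPM in cKO. The genotypes did not overlap (as for 12.3% of all genes), and the cKO library nearest to control was replicate 4, the one without high fat genes. The log2 fold change was 0.73 (SE 0.10, 95% interval 0.50 to 0.95, edgeR adjusted p = 0.00144), 0.43 with the fat score as a covariate (edgeR adjusted p = 0.117) and 0.38 with only cKO replicate 4 against the controls (edgeR adjusted p = 0.355). The part of fat cells in it was not tested beyond these fits. *Osr1*, which encodes a zinc finger factor of early mesoderm, had a log2 fold change of −0.21 (SE 0.13, edgeR adjusted p = 0.370). *Lhx2*, a LIM homeobox gene with 1 to 10 counts per library, had −1.08 (SE 0.54, edgeR adjusted p = 0.267).

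Among 14449 other genes with a mean of at least 1 CPM, those whose within-genotype profile over the 8 libraries was most like the mean profile of the 7 were *Rhno1* (r = 0.978), *Rnf220* (0.975), *Orc1* (0.974), *Nnat* (0.971), *Lsm12* (0.967) and *Syce2* (0.965). In all, 23 of the 14449 genes had r of at least 0.95 and 107 had at least 0.9. Control replicate 2 was the lowest library for each of the 6. For *Orc1* it was at 4.84 CPM, against 7.54 to 7.96 in the other control libraries and 6.49 to 7.11 CPM in cKO. *Dpp4*, which encodes a membrane peptidase found on mesothelium and fibroblasts, was the gene most like *Upk3b* alone (r = 0.990), at 50.4 CPM in control replicate 2, 62.4 to 70.6 CPM in the other control libraries and 54.9 to 64.6 CPM in cKO. *Fbxo48* (0.986) and *Ung* (0.985) came next. None of these 9 genes passed the adjusted p between genotypes (edgeR adjusted p from 0.247 to 0.885).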

How the data were processed

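Whole PD10 uteri of 4 control and 4 *Ezh2* cKO mice gave one RNA-seq library each. The authors trimmed reads with Trimmomatic, checked them with FastQC, aligned them to GRCm38 with HISAT2, counted them with featureCounts, and deposited the raw counts of each library by Entrez gene. The library kit is stranded. The annotation release and strand setting are not given in the sources used here. A deposited table of the authors' edgeR comparison (fold changes, log2 CPM, F, p-values) was used only for its gene symbols.

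From the counts, genes with CPM over 0.2 in at least 4 libraries (16658 of 27179) were tested with edgeR 4.0.16 (R 4.3.3) with TMM scaling, glmQLFit and glmQLFTest with robust = TRUE, a prior count of 0.125 and Benjamini-Hochberg adjustment over all genes tested. Standard errors are the log2 fold change divided by the square root of F. The code was tested on simulated data. Coordinates and promoters came from RefSeq (GRCm38.p6) and exon lengths from GENCODE M21.

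The 7 genes and all lists (further mesothelium, coelomic factors, epithelium, stroma, smooth muscle, fat, ovary, oviduct, urothelium, squamous epithelium, nerve, skeletal muscle, endothelium, macrophages) were chosen with earlier results of these data known. Named were all 7 genes, the 6 further and 3 coelomic genes with the smallest p, at most 2 abundant genes per marker list, the 6 and 3 genes most alike in profile, *Ezh2* and *Amhr2*. Marker genes named beyond this were chosen after their values were seen. They were genes of the stroma, nerve and skeletal muscle lists that passed the adjusted p, genes at 0, untested genes and *Upk1b*. Alternatives were other scalings, DESeq2 1.42.0, limma-voom (limma 3.58.1), robust = FALSE, other filters, a prior count of 2, a replicate block, a fat score as a covariate, and leaving out each library.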

Additional observations from a re-analysis of the deposited data

Results flagged for a closer look

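Of 56 groups of 4 libraries examined (7 mesothelial genes and the further and coelomic genes, in each genotype), 1 held a library far from the rest. *Bcam* was at 222.3 CPM in cKO replicate 1, against 204.8 to 207.0 CPM in the other 3 cKO libraries, and the gap to the nearest was 0.873 of the whole range. Chance flags about 1 in 20 groups in this way. The low levels of *Upk3b*, *Msln*, *Lrrn4*, *Gpm6a* and *Bnc1* in control replicate 2 did not pass this test for any single gene.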

How the results depend on the processing

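Of 133 refits of the 7 genes, 115 kept their direction, 18 turned it and 0 passed the adjusted p. The differences that turned were small. *Wt1* came to 0.0116 with upper quartile scaling and 0.000304 with edgeR's own filter (filterByExpr), *Muc16* to 0.184 with the fat score in the model and 0.141 with only cKO replicate 4 against the controls, and *Gpm6a* to −0.0167 in the last. Leaving out each library in turn gave −0.174 to 0.195 for *Upk3b*, −0.0479 to 0.367 for *Msln*, −0.0644 to 0.522 for *Lrrn4*, −0.106 to 0.31 for *Bnc1*, −0.0797 to 0.0327 for *Wt1* and −0.198 to 0.0715 for *Muc16*. Without control replicate 2, 4 of the 7 turned negative. *Wt1* turned on leaving out replicate 1 or 4 of either genotype, and *Muc16* on leaving out replicate 1 of either genotype or cKO replicate 2. The cause was not tested.

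Genes of the further list with an adjusted p under 0.05 numbered 1, but 4 with DESeq2, 2 with robust = FALSE, 3 with a replicate block, and 1 to 3 when each library was left out (2 without control replicate 2, 3 without cKO replicate 4). Of 114 refits of its 6 named genes, 105 had the same outcome by the adjusted p as the main fit, passing or not. The other 9 passed where the main fit did not. *Pkhd1l1* (adjusted p = 0.00569 with the block, 0.0171 with DESeq2) and *Krt19* (0.0239 and 0.0207) passed under the edgeR replicate block and DESeq2, and *C3* with DESeq2 and robust = FALSE. The coelomic count of 1 became 0 with the fat score and with only cKO replicate 4, a setting chosen after seeing the data, which leaves 1 cKO library assumed to vary like the others. Over all genes, 217 were called (48 with the fat score, 20 with only cKO replicate 4, 134 to 320 leaving out a library) and 889 passed the adjusted p (1510 with DESeq2, 119 with the fat score, 35 with only cKO replicate 4, 393 to 1773 leaving out a library). The first count moved by over 1.5 times on leaving out control replicate 1 (134) and, among cKO libraries, replicate 1 (135) or 2 (137), and the other without control replicate 1 (393) or 3 (571) or any cKO replicate (452, 485, 523 and 1773 without replicates 1 to 4).

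Same-numbered control and cKO libraries had correlations of 0.07, 0.16, −0.04 and 0.26 over 14456 genes. Differently numbered libraries were not compared, so these values do not settle whether the numbers pair the libraries. The replicate block changed no call of the 7 genes. Over all genes, 253 were called with it and 1240 passed the adjusted p, against 217 and 889 without it. Depth limits *Muc16* most, at 21 to 47 counts per library. With all 8 libraries a 2-fold rise of *Lrrn4* stays within its interval. Without control replicate 2 its log2 fold change was −0.0644 (SE 0.191).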
